A study of Mus musculus with 20 samples.

Results

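Genes of the canonical Wnt pathway were followed in mouse embryonic stem cells that had lost TRIM71 or carried its R595H form: the receptors Lrp5 and Lrp6, the membrane ubiquitin ligase Znrf3, the kinase Gsk3b, the scaffold Axin2, beta-catenin (Ctnnb1), the DNA-binding partners Tcf7, Tcf7l1 and Tcf7l2, and the target Sp5. They were chosen by symbol, and all 10 of the 10 had a row among the 13283 symbols of the deposited table. Bulk mRNA was sequenced from 20 libraries. The conditional system held 4 libraries of Trim71-cond cells, labelled as carrying floxed Trim71 alleles, and 4 of Trim71-KO cells, and each library bears a code (1A, 2B, 3A or 3B) found once in either group. The clonal system held 3 clones each of WT (C16, C7, C5), R595H/+ (C15, C21, C23) and R595H/R595H (C14, C20, C24), in 12 libraries.

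All groups were labelled as male C57BL/6 cells, and all were kept in serum with LIF and the inhibitor pair called 2i. The clones C16, C14 and C15 had a library from each of the title dates 20/1 and 5/2, and the other clones had a library from 5/2. Another label field gave other days for most clonal libraries, so the dates are those of the titles. No clone is named for the conditional libraries, and the sources used here do not say how the deletion was made. Their p-values therefore measure the spread between these libraries, which may be technical. The clonal tests rest on 3 clones a genotype.

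In the canonical pathway, Wnt ligands bind a Frizzled receptor together with LRP5 or LRP6. This stops a complex of AXIN, APC, casein kinase 1 and GSK3 from marking beta-catenin for destruction, and the protein then enters the nucleus and acts through TCF/LEF factors. In mouse embryonic stem cells TCF7L1 represses genes of the naive state and beta-catenin relieves that repression. The 2i medium combines an inhibitor of MEK with an inhibitor of GSK3, so a GSK3 inhibitor was present in every group, controls included.

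Values are the deposited ones, on a log2 scale on which low levels are probably drawn together, so that differences of low genes would be understated. A difference of 0.30 on that scale corresponds to 1.23-fold, the ratio for Gsk3b below. Genes were tested with limma where their mean reached 3.32 (10 on the linear scale), and a call needed an adjusted p (Benjamini-Hochberg, over all genes tested) under 0.05. By that rule 9 of the 10 members were tested in each system and Sp5 was not. In these bulk samples, fewer cells expressing a gene and less RNA per cell cannot be told apart.

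Library medians lay within 5.15 to 5.20 over the 20 libraries. Trim71 stood at 7.47 ± 0.05 in Trim71-KO against 8.95 ± 0.04 in Trim71-cond (SD, n = 4 each), and at 10.11 ± 0.10 in R595H/R595H against 9.50 ± 0.03 in WT (SD, n = 3 clones each). The stem cell marker Pou5f1 was between 8.48 and 9.22 in every library. Pou5f1 and Esrrb were called neither after deletion nor in R595H/R595H against WT. Other stem cell markers differed. After deletion Klf4 changed by 0.74 (limma adjusted p = 9.27e-07), Nanog by 0.39 (1.36e-05), Sox2 by 0.23 (0.00647) and Zfp42 by -0.20 (0.0394). Klf4 was also higher in R595H/R595H than in WT, by 0.47 (0.00364). The neural or streak markers Nes (5.84 to 6.55), Tubb3 (3.80 to 4.79) and Eomes (3.53 to 3.96) were called in neither comparison. Of 7 feeder or fibroblast markers only 1 had a row, and its level was 2.10 or less. The libraries of code 1A stood apart: the deviations of the pair from their group means correlated at -0.89 across 9580 genes, so conditional results are also given without both. The summed level of 4 Y-linked genes ranged from 5.88 to 6.68 in R595H/R595H clones but from 6.11 to 8.81 in WT and from 6.27 to 8.42 in R595H/+, although every clone was labelled male. A fit with the mean of those genes as a covariate is therefore among the alternatives for the clones. In the conditional libraries the same sum was 8.54 to 8.90 in Trim71-cond and 8.36 to 8.50 in Trim71-KO, without overlap. After deletion Ddx3y (-0.40, limma adjusted p = 0.000944) and Uty (-0.40, 0.00494) were called lower, and Eif2s3y (-0.13, 0.293) was not called. The deletion comparison had no such fit, so whether this gap bears on its calls was not tested.

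Per kilobase of exon, the members spanned a wide range in Trim71-cond. Ctnnb1 was the most abundant at 350 linear units per kilobase. Lrp6 followed at 21.9, Tcf7 at 17.96 and Gsk3b at 13.5. The negative-feedback genes were lower, Znrf3 at 6.41 and Axin2 at 3.53, as were Lrp5 at 3.22, Tcf7l1 at 2.79 and Tcf7l2 at 1.33. Sp5 was last at 0.445. Among the DNA-binding partners, the level per kilobase was thus highest for Tcf7.

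Sp5, a zinc-finger factor that is a direct target of beta-catenin, lay between -0.17 and -0.01 in all 20 libraries, below the chosen test minimum, and was left out of the tests for that reason. Its promoter is shown because it was the only member window to hold a TCF/LEF core. Windows ran from 250 bases before to 50 bases after each RefSeq start (GRCm38.p6), and 7 of the 10 members had one or more, 10 windows in all. They were searched on both strands for CTTTGAT and CTTTGAA, letters that do not overlap one another. Of all 32851 windows, 3.73% held CTTTGAT, 5.14% held CTTTGAA and 8.65% held either. The match in Sp5 lay at chr2:70474819-70474825 on the plus strand, its first base 104 bases before the start, and is in capitals within chr2:70474799-70474845.
Sp5: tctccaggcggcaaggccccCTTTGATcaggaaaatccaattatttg
A match of 7 letters is a description of the sequence and no evidence of binding. No match was found in the windows of Axin2, Ctnnb1, Tcf7, Tcf7l1, Tcf7l2 or Gsk3b, which says only that these letters are not in those windows.

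The 60 bases just before the RefSeq start are shown for 3 of the 4 members that have a window and were called below. Each is on its own strand with CG pairs in capitals. These 3 are shown because their windows hold more CG pairs than most. The stretches are chr11:108920289-108920348 (plus) for Axin2, chr6:72789046-72789105 (minus) for Tcf7l1 and chr16:38088941-38089000 (plus) for Gsk3b. That of Tcf7l1 lies inside the gene as GENCODE places it (chr6:72626378-72789254), so it is upstream of the RefSeq start only.
Axin2: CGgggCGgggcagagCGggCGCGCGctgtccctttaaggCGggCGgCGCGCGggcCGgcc
Tcf7l1: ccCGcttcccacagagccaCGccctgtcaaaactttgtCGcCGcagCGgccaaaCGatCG
Gsk3b: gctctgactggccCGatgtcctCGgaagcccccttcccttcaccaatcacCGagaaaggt
Over the full 300 bases, Axin2 held 31 CG pairs, Tcf7l1 held 34 and Gsk3b held 21, against a median of 7 over all windows. Tcf7l2, not shown, has 2 windows, with 34 and 7 CG pairs. Members not called below also had many: Ctnnb1 held 46 and 51 in its 2 windows, and Tcf7 held 45 and 17. A high count was thus not particular to the called members. Sp5, with 6, was close to the median.

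Deletion of Trim71 was accompanied by small changes in 5 of the 9 tested members. Gsk3b and Lrp6 were higher, by 1.23-fold and 1.16-fold, and Axin2, Tcf7l1 and Tcf7l2 were lower, by 1.21-fold, 1.20-fold and 1.18-fold. Against these 5 of 9, limma called 18.6% of all 9580 genes, 9.24% higher and 9.37% lower. The groups did not overlap for these 5 members, as for 20.8% of all genes. Tcf7l1 and Tcf7l2 passed the minimum only through Trim71-cond, where they were high, so their direction was partly fixed by that filter. Of the 7 members above the minimum in both groups, 2 were higher and 1 was lower. With the replicate code as a block, 2 members were called, Gsk3b and Lrp6.

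**Figure D1:**
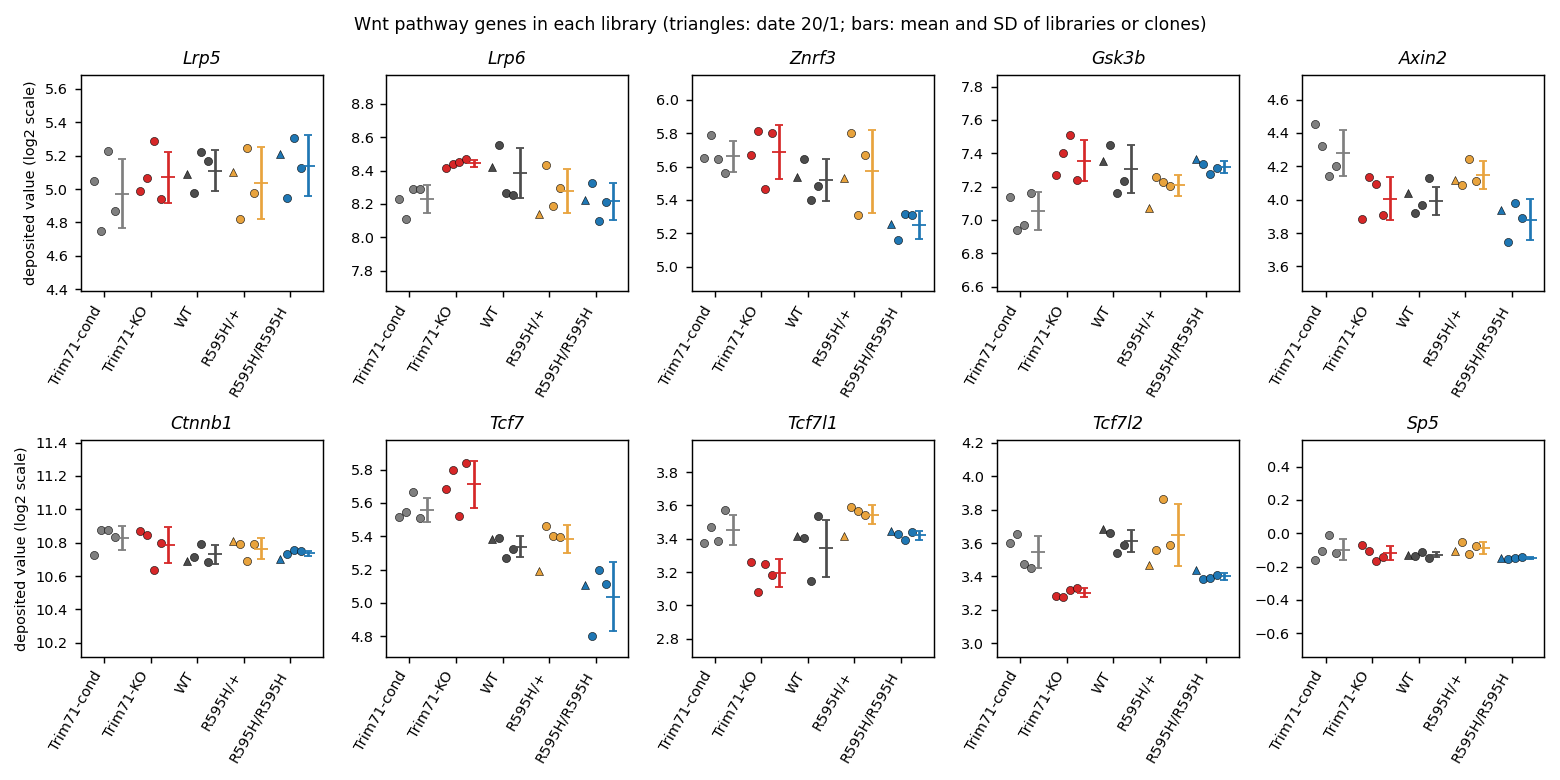
Deposited value (log2 scale) of each member in each of the 20 libraries, by group. Points are libraries (triangles: title date 20/1), and the bar beside them is the mean and SD over 4 libraries or 3 clones; every panel spans the same height. Gsk3b and Lrp6 stand higher in Trim71-KO than in Trim71-cond, Axin2, Tcf7l1 and Tcf7l2 lower, and Sp5 stays between -0.17 and -0.01.

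Lrp6 (chr6:134446476-134566965, GRCm38, minus strand) encodes a co-receptor that, once phosphorylated, draws AXIN to the membrane. Its values in Trim71-cond were 8.23 (1A), 8.29 (2B), 8.11 (3A) and 8.29 (3B). In Trim71-KO they were 8.41, 8.45, 8.44 and 8.47 in the same order. Every Trim71-KO library was above every Trim71-cond library, and the Trim71-KO libraries lay within 0.05 of each other. The difference was 0.22 ± 0.06 (SE, n = 4 against 4, limma adjusted p = 0.0122), and it was positive in 4 of 4 codes. It was lost only without Trim71-cond 3A, the lowest library, at 0.18 with an adjusted p of 0.0503.

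Lrp5 (chr19:3584828-3686564, minus strand), the related co-receptor, ran from 4.75 to 5.23 in Trim71-cond and from 4.94 to 5.29 in Trim71-KO. The ranges overlapped for most of their length. Its difference of 0.10 had a 95% interval of -0.12 to 0.31 (adjusted p = 0.554), which includes the size found for Lrp6. Znrf3 (chr11:5276324-5444847, minus strand), a ligase that removes Frizzled and LRP6 from the membrane and is itself induced by the pathway, was at 5.69 ± 0.16 in Trim71-KO and 5.66 ± 0.09 in Trim71-cond (SD, n = 4 each). Its interval, -0.16 to 0.21, lay on both sides of 0 (adjusted p = 0.867).

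Gsk3b (chr16:38089001-38246084, plus strand) encodes the kinase that phosphorylates beta-catenin, the enzyme that 2i inhibits. Trim71-cond libraries were at 7.14 (1A), 6.97 (2B), 6.94 (3A) and 7.16 (3B). Trim71-KO libraries were at 7.27, 7.51, 7.40 and 7.24. The lowest Trim71-KO value, of 3B, was still above the highest Trim71-cond value, also of 3B. The difference was 0.30 ± 0.08 (SE, n = 4 against 4, limma adjusted p = 0.00875). It was unequal between codes, 0.54 in 2B and 0.46 in 3A but 0.13 in 1A and 0.08 in 3B. Gsk3b was called in all 15 alternative analyses, with differences from 0.25 to 0.36, among them that without both 1A libraries (0.36, adjusted p = 0.00613).

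Axin2 (chr11:108920349-108950783, plus strand) encodes a scaffold of the destruction complex and is a widely used readout of beta-catenin activity. Its Trim71-cond values were 4.45 (1A), 4.14 (2B), 4.32 (3A) and 4.20 (3B). In Trim71-KO they were 3.88, 4.09, 4.14 and 3.91. The highest Trim71-KO value (3A) and the lowest Trim71-cond value (2B) nearly met, both being 4.14 when rounded, and the groups did not overlap. Axin2 fell by 0.27 ± 0.09 (SE, n = 4 against 4, limma adjusted p = 0.039) and was lower in 4 of 4 codes. The drop was largest in 1A, at 0.57, and it was 0.04 in 2B. Without both 1A libraries the difference was -0.18 (adjusted p = 0.294), and with the replicate code as a block the adjusted p was 0.0652. The call was also lost without Trim71-cond 1A (-0.22, adjusted p = 0.126), Trim71-KO 1A (0.111), Trim71-cond 3A (0.0847), Trim71-cond 3B (0.0511) or Trim71-KO 3B (0.104).

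**Figure D2:**
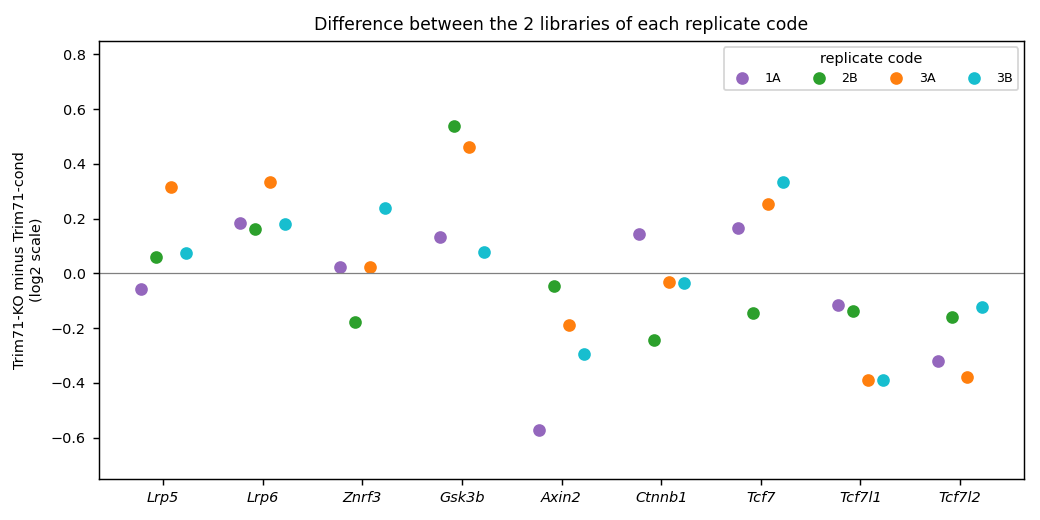
Trim71-KO minus Trim71-cond value (log2 scale) of each tested member between the 2 libraries that share a replicate code; each point is a code. The points of Lrp6 and Gsk3b are all above 0 and those of Axin2, Tcf7l1 and Tcf7l2 all below 0, and the 1A point of Axin2, at -0.57, is the lowest in the plot.

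Ctnnb1 (chr9:120929216-120960507, plus strand) encodes beta-catenin, which acts both in the pathway and at cell junctions. It was at 10.79 ± 0.11 in Trim71-KO and 10.83 ± 0.07 in Trim71-cond (SD, n = 4 each). The difference of -0.04 had a 95% interval of -0.15 to 0.07 (adjusted p = 0.626). Transcript level is no measure of its protein, which is set largely by degradation.

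Of the TCF factors, Tcf7l1 and Tcf7l2 were called and Tcf7 was not. Tcf7 (chr11:52252371-52283014, minus strand), which mostly activates when bound by beta-catenin, was at 5.68 (1A), 5.52 (2B), 5.80 (3A) and 5.84 (3B) in Trim71-KO. In Trim71-cond it was at 5.52, 5.67, 5.54 and 5.51, so the groups overlapped because code 2B went the other way from the rest. The difference was 0.15 with an interval of -0.03 to 0.33 (adjusted p = 0.231).

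Tcf7l1 (chr6:72626378-72789254, minus strand), the repressor of naive genes, was at 3.37 (1A), 3.39 (2B), 3.47 (3A) and 3.57 (3B) in Trim71-cond. In Trim71-KO the values were 3.26, 3.25, 3.08 and 3.18, all below the lowest Trim71-cond library. Tcf7l1 fell by 0.26 ± 0.08 (SE, n = 4 against 4, limma adjusted p = 0.025), by 0.39 in 3A and 3B and by 0.11 in 1A. Its mean over the 8 libraries was 0.00081 above the test minimum, so it went untested in 6 of 15 alternatives, among them both rescalings of the libraries. With the replicate code as a block the adjusted p was 0.058, and without Trim71-KO 3A it was 0.0746. Without both 1A libraries the difference was -0.31 and was called.

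Tcf7l2 (chr19:55741820-55933654, plus strand) was at 3.60 (1A), 3.47 (2B), 3.65 (3A) and 3.45 (3B) in Trim71-cond. The Trim71-KO libraries lay close together at 3.28, 3.32, 3.27 and 3.33, below all of these. Tcf7l2 fell by 0.24 ± 0.08 (SE, n = 4 against 4, limma adjusted p = 0.0291), and it was lower in 4 of 4 codes. The call was lost with the replicate code as a block (adjusted p = 0.0729), without both 1A libraries (0.139) and without Trim71-cond 1A (0.0779), Trim71-KO 1A (0.0705), Trim71-cond 3A (0.0906), Trim71-KO 3A (0.0593) or Trim71-KO 2B (0.0522), while the difference stayed between -0.28 and -0.21.

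In the R595H/R595H clones no member passed the test against WT, where limma called 3.42% of 9587 genes (210 higher and 118 lower, or 72 higher and 85 lower with every library scaled to the same total). Tcf7, Tcf7l2 and Znrf3 had an unadjusted p under 0.05, and their clones did not overlap, as for 29.7% of all genes. All 3 stood lower in R595H/R595H. Gsk3b, Lrp6 and Tcf7l1, which were called after deletion, had differences of 0.01, -0.17 and 0.08 here.

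The Tcf7 values of the R595H/R595H clones were 5.11 on both dates in C14, 4.80 in C20 and 5.20 in C24. The WT clones were at 5.39 (20/1) and 5.32 (5/2) in C16, 5.39 in C7 and 5.27 in C5. Clone C20 was the lowest of all, and C24 was the nearest to the WT range. The difference was -0.30 ± 0.10 (SE, n = 3 against 3 clones, limma adjusted p = 0.118, lower in 3 of 3 clones than every WT clone), and over 16 alternatives it ranged from -0.38 to -0.18.

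Tcf7l2 was at 3.44 (20/1) and 3.41 (5/2) in R595H/R595H C14, 3.39 in C20 and 3.39 in C24. WT gave 3.69 (20/1) and 3.59 (5/2) in C16, 3.66 in C7 and 3.54 in C5. The mutant clones were tightly grouped under the WT range, with a difference of -0.21 ± 0.09 (adjusted p = 0.2). Znrf3 in R595H/R595H was at 5.26 (20/1) and 5.31 (5/2) in C14, 5.16 in C20 and 5.31 in C24. In WT it was at 5.54 and 5.49 in C16, 5.65 in C7 and 5.40 in C5. That is a difference of -0.27 ± 0.12 (adjusted p = 0.207) with no overlap of clones.

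The remaining members differed less. Axin2 stood at 3.88 ± 0.12 in R595H/R595H and 3.99 ± 0.09 in WT (SD, n = 3 clones each), with overlap and an adjusted p of 0.506. Lrp6 was at 8.21 ± 0.11 against 8.39 ± 0.15 (adjusted p = 0.31), Gsk3b at 7.32 ± 0.04 against 7.30 ± 0.14 (0.942) and Ctnnb1 at 10.74 ± 0.02 against 10.73 ± 0.06 (0.969). Lrp5, at 5.14 ± 0.18 against 5.11 ± 0.12, and Tcf7l1, at 3.42 ± 0.03 against 3.34 ± 0.17, did not pass either (0.917 and 0.652). The 95% interval was -0.16 to 0.19 for Gsk3b and -0.30 to 0.08 for Axin2. Neither gene passed the direct test of whether its effect differed from that of deletion, which is given below (adjusted p = 0.185 and 0.542).

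**Figure D3:**
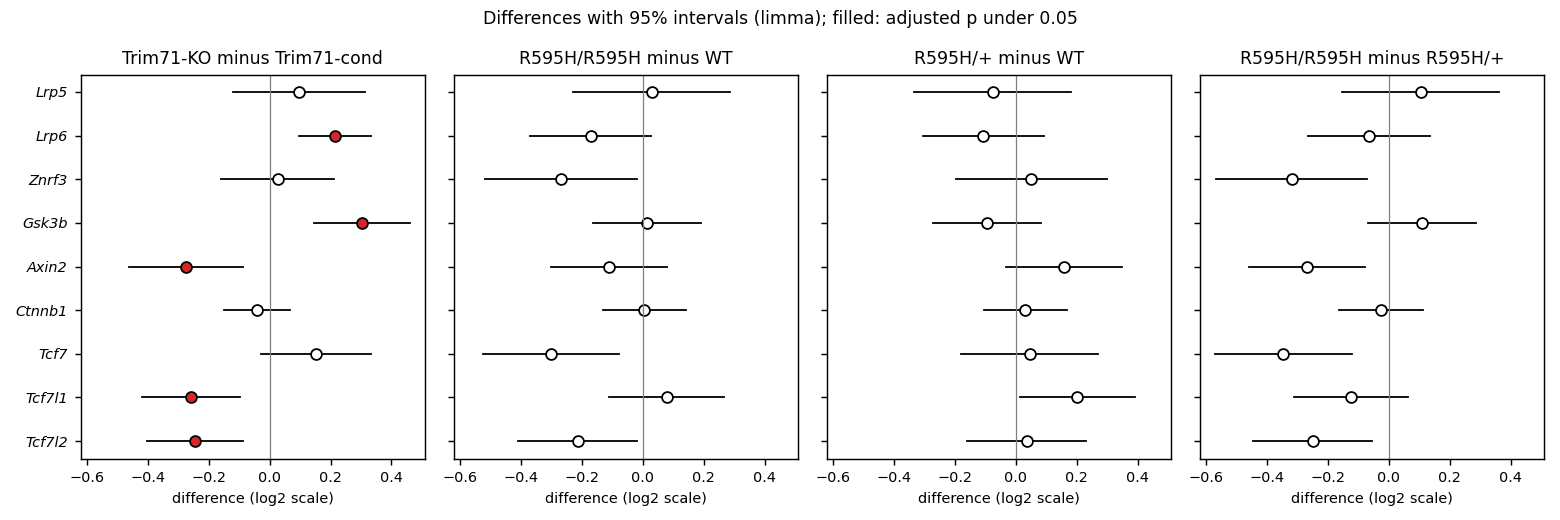
Difference (log2 scale) of the 9 tested members in 4 comparisons, with 95% intervals from limma; filled points have an adjusted p under 0.05. Filled points occur in the Trim71-KO panel alone, for Lrp6, Gsk3b, Axin2, Tcf7l1 and Tcf7l2; the panels on the right share clones with one another.

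Heterozygous clones were compared with the same WT clones. No member was called, nor was any gene (0%), although 734 genes had an unadjusted p under 0.05. Averaged by clone, the groups did not overlap for Axin2 and Tcf7l1, as for 12.5% of all genes. For Tcf7l1 the nearest clones were R595H/+ C15 at 3.479 and WT C16 at 3.478. Single libraries overlapped for both genes. WT C16 (5/2) was at 4.13 for Axin2, above R595H/+ C21, and at 3.54 for Tcf7l1, above R595H/+ C15 (20/1) at 3.42. Axin2 was at 4.12 (20/1) and 4.11 (5/2) in C15, 4.09 in C21 and 4.24 in C23, which averaged 0.16 above WT (adjusted p = 0.732). Tcf7l1 was at 3.55 ± 0.06 (SD, n = 3), higher than WT by 0.20 (unadjusted p = 0.0367, adjusted p = 0.638). The other 7 tested members differed from WT by at most 0.11.

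R595H/R595H was also set against R595H/+, which shares its R595H/R595H clones with the comparison above. No member was called here either, where limma called 0.772% of genes (55 higher and 19 lower, or 11 higher and 8 lower with equal library totals). Axin2, Tcf7, Tcf7l2 and Znrf3 had an unadjusted p under 0.05 and all stood lower in R595H/R595H. The differences were -0.27 ± 0.09 for Axin2 (adjusted p = 0.133), -0.35 ± 0.10 for Tcf7 (0.111), -0.25 ± 0.09 for Tcf7l2 (0.171) and -0.32 ± 0.12 for Znrf3 (0.171). Averaged by clone, the groups did not overlap for 5 of the 9 tested members, as for 25.4% of all genes. These were Axin2, Tcf7 and Tcf7l2, Tcf7l1 (-0.12, adjusted p = 0.473) and, in the other direction, Gsk3b (0.11, 0.509). In single libraries, R595H/+ C15 (20/1) lay within the R595H/R595H range for Tcf7 (5.19) and Tcf7l1 (3.42). For Znrf3 the groups overlapped, since R595H/+ C23 at 5.31 lay far below C21 at 5.80.

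A single fit over both systems asked whether the effect of the deletion differed from that of R595H/R595H. The systems differ in starting cells and handling, which cannot be told apart from genotype. No member passed, where limma called 1.42% of 9585 genes (70 higher and 66 lower, or 70 higher and 32 lower with equal library totals). Lrp6 came nearest, with a difference of 0.39 ± 0.11 (limma adjusted p = 0.0615), higher after deletion and lower in R595H/R595H. It passed without R595H/R595H C20 (adjusted p = 0.0358), R595H/+ C21 (0.0369) or WT C5 (0.0467). Tcf7 followed at 0.45 ± 0.14 (0.0814), Tcf7l1 at -0.34 ± 0.12 (0.129) and Gsk3b at 0.29 ± 0.12 (0.185). For Axin2 (-0.16, adjusted p = 0.542) and Tcf7l2 (-0.03, 0.921) the intervals, -0.43 to 0.10 and -0.27 to 0.21, contained 0.

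The order of the 5 group means was not the same for all members, although Tcf7 and Znrf3 shared one. Tcf7 was highest in Trim71-KO (5.71 ± 0.14) and Trim71-cond (5.56 ± 0.07), followed by R595H/+ (5.38 ± 0.09), WT (5.34 ± 0.06) and R595H/R595H (5.04 ± 0.21). Trim71-cond and Trim71-KO overlapped, as did R595H/+ and WT. Axin2 was highest in Trim71-cond (4.28 ± 0.14) and next in R595H/+ (4.15 ± 0.08), which overlapped with Trim71-KO (4.01 ± 0.13) and neighboured WT (3.99 ± 0.09) and R595H/R595H (3.88 ± 0.12). Between the control groups, Trim71-cond stood 0.29 above WT for Axin2 and 0.22 above it for Tcf7, with no overlap. For the other members the controls overlapped. For Gsk3b they did so barely, between Trim71-cond 3B at 7.164 and WT C5 at 7.163, and Trim71-cond minus WT was -0.25. The share of all genes without overlap between the controls was not worked out, so these gaps are not shown to be particular to the members. Gsk3b was lowest in Trim71-cond (7.05 ± 0.12), below R595H/+ (7.21 ± 0.06), WT (7.30 ± 0.14), R595H/R595H (7.32 ± 0.04) and Trim71-KO (7.35 ± 0.12), and neighbours in this order overlapped. Whether the control gaps come from cells or handling cannot be told apart.

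Members were also compared with one another over 17 units, the 8 conditional libraries and 9 clones, after the mean of each system was subtracted. These correlations describe units that share genotypes, and no test is attached. Of 36 pairs, the highest Pearson r was 0.77 for Axin2 with Tcf7l2 (Spearman rho 0.71), followed by 0.74 for Tcf7 with Znrf3 and 0.68 for Lrp6 with Gsk3b. Each of these 3 pairs was positive within the conditional libraries and within the clones. The lowest was -0.60 for Ctnnb1 with Gsk3b.

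Among 9376 genes, the pattern most like that of Lrp6 was that of Lin28b, which encodes an RNA-binding protein that blocks let-7 maturation. Pearson r was 0.94 over the 17 units (rho 0.92), 0.93 in the conditional libraries and 0.95 in the clones, and 0.91 without the 2 units farthest from the median. Ap2b1, an adaptor subunit of clathrin coats, and Prkdc, a DNA repair kinase, came next at 0.92 and 0.91. Lin28b stood 0.44 higher in Trim71-KO than in Trim71-cond and 0.42 lower in R595H/R595H than in WT. It was chosen for following Lrp6 over these units, so both values are a description with no test. For Gsk3b the most alike were Tbc1d32, Trps1 and Sgms1, each at 0.89, and without the 2 farthest units these were 0.79, 0.80 and 0.80.

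**Figure D4:**
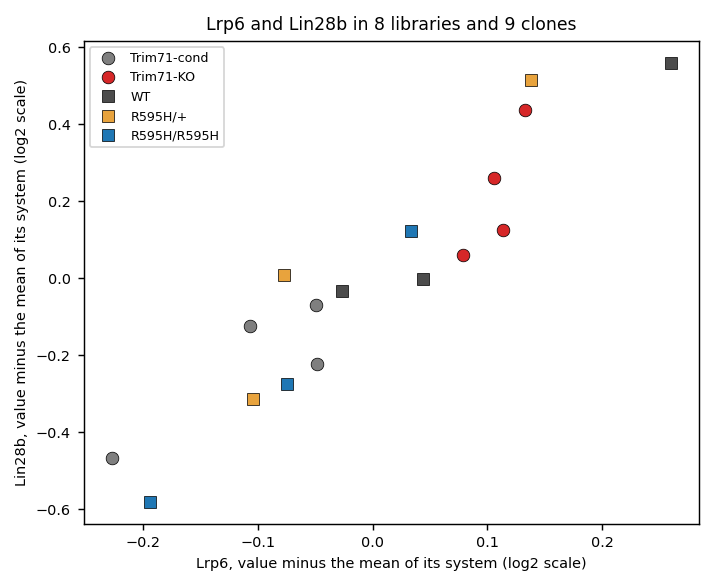
Value of Lin28b against that of Lrp6 in 8 conditional libraries (circles) and 9 clones (squares), each minus the mean of its system (log2 scale). The points rise together (Pearson r 0.94), with Trim71-KO libraries at the upper right of the Trim71-cond libraries and the R595H genotypes spread along the same line.

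Wider lists, chosen with earlier results known, held 137 further genes of the Wnt pathway or tied to it, by role. Of these, 98 had a row and 72 were tested. After deletion 13 were higher and 5 lower, or 25% against the 18.6% of all genes. Among the lower ones is Cdh2, which passed the minimum only through Trim71-cond. The 72 include 8 naive genes reported as repressed by TCF7L1 (3 higher and 1 lower), listed with the rise of naive genes in these libraries known. They also include 6 junction genes (2 higher and 1 lower). The 25% is therefore not independent evidence that Wnt genes were called more often than others. The median size of a difference was 0.12 against 0.11 over all genes. Over 15 alternatives the count called lay between 12 and 19. In R595H/R595H, 2 were higher and none lower (2.78%, against 3.42% of all genes). In the heterozygotes none was called, nor was any other gene.

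Ligands were scarcely represented. Of 21 genes for Wnt proteins and their secretion 7 had a row, and only Wls, which carries Wnt proteins to the surface, was tested, at -0.20 after deletion (adjusted p = 0.2). Among 13 tested receptor genes, 2 were higher and none lower after deletion, against 9.24% and 9.37% of all genes. Fzd5, a Frizzled receptor, was higher by 0.40 ± 0.07 (adjusted p = 0.000276), beside Lrp6. In R595H/R595H Fzd5 differed from WT by -0.01 (0.962).

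Of 6 tested antagonists, 2 were higher and 1 lower after deletion, against 9.24% and 9.37% of all genes. Sfrp1, a secreted Frizzled-related protein, was higher by 0.40 ± 0.10 (adjusted p = 0.0113), although Trim71-cond 1A at 8.68 stood apart from the other control libraries and the groups overlapped. Dkk3 was higher by 0.27 ± 0.08 (0.0221, but 0.0523 with the block), a call also lost without Trim71-cond 3A (0.0677), Trim71-cond 2B (0.0555) or Trim71-KO 2B (0.0704). Notum, a lipase that removes the lipid of Wnt proteins and is induced by the pathway, fell by 0.35 ± 0.10 (0.018) with overlapping groups. The call for Notum was lost without Trim71-cond 2B (0.0679), Trim71-cond 3B (0.058) or Trim71-KO 3B (0.0723).

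Of 23 tested destruction complex and Dishevelled genes, 3 were higher and 2 lower after deletion, against 9.24% and 9.37% of all genes. Amer1, a membrane partner of APC, was higher by 0.30 ± 0.08 (adjusted p = 0.0125), beside Gsk3b. Csnk1g3, a casein kinase 1, was higher by 0.22 ± 0.07 (0.0483, and 0.114 with the block). The Csnk1g3 call was lost in 11 of 15 alternatives (adjusted p up to 0.14), among them no filter (0.0591), both systems in one fit (0.0861) and every omission of a single library but Trim71-cond 3B. Btrc, the ubiquitin ligase subunit that recognises phosphorylated beta-catenin, fell by 0.24 ± 0.07 (0.0217, and 0.0502 with the block). The Btrc call was also lost without Trim71-KO 1A (0.0581), both 1A libraries (0.101), Trim71-cond 3A (0.0555) or Trim71-KO 3A (0.0721). In the clones Csnk1e, a casein kinase 1 that acts with Dishevelled, was higher in R595H/R595H than in WT by 0.47 ± 0.11 (0.0305). That call ended without WT C16, WT C7, WT C5 or R595H/R595H C14 (adjusted p from 0.0546 to 0.123), with equal library totals (0.0654) and with the Y-linked covariate (0.0921).

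Of 21 tested nuclear partners, 3 were higher and 3 lower after deletion, against 9.24% and 9.37% of all genes. Of the lower ones, Tcf7l1 and Tcf7l2 passed the minimum only through Trim71-cond, as given above, which leaves Kdm1a. The co-repressor gene Ctbp2 was higher by 0.20 ± 0.06 (adjusted p = 0.0204, and 0.0519 with the block), the deacetylase gene Hdac2 by 0.18 ± 0.06 (0.0422) and Tbl1xr1, of a co-regulator complex, by 0.20 ± 0.05 (0.0144). The demethylase gene Kdm1a fell by 0.16 ± 0.05 (0.0377, and 0.0556 with the block). The Kdm1a call was lost in 9 of 15 alternatives (adjusted p up to 0.108), among them both rescalings and the omission of Trim71-cond 3A, 2B or 3B or of Trim71-KO 3A or 2B. That of Hdac2 was lost in 7 of 15, with no filter (0.0541), with the other variance prior (0.109) and without Trim71-cond 3A, 2B or 3B or Trim71-KO 2B or 3B (0.0641 to 0.135). The Ctbp2 call was lost without Trim71-cond 2B (0.063) or Trim71-KO 2B (0.0616), and that of Tbl1xr1 without Trim71-KO 2B (0.0524) and with both systems in one fit (0.0987). Of the 25 listed beta-catenin targets 16 had a row and 8 were tested. Axin2 and Notum, both lower after deletion, were the only ones called, where 18.6% of all genes were called in either direction. By sign alone 5 of the 8 tested were higher and 3 lower, with a median difference of 0.02. The 8 not tested lay below the minimum, among them Sp5.

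All 8 naive genes reported as repressed by TCF7L1 were tested. After deletion 3 were higher and 1 lower, against 9.24% and 9.37% of all genes. Nr5a2 was higher by 0.52 ± 0.06 (adjusted p = 5.95e-06), Nanog by 0.39 ± 0.05 (1.36e-05) and Tbx3 by 0.36 ± 0.06 (0.000434), all 3 transcription factors of the naive state. Tcl1, a co-activator of AKT, fell by 0.38 ± 0.08 (0.00291). In R595H/R595H Tbx3 alone of the list passed, at 0.29 ± 0.07 above WT (0.0439), and it failed in 11 of 16 alternatives. This list was drawn up with the rise of naive genes in these libraries known, so its direction is not independent evidence.

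Beta-catenin also binds cadherins. Of 6 tested genes of the junction list, 2 were higher and 1 lower after deletion, against 9.24% and 9.37% of all genes. Cdh1 (E-cadherin) was higher by 0.37 ± 0.05 (adjusted p = 7.46e-05) and Jup, the related plakoglobin, by 0.28 ± 0.07 (0.0112, and 0.0647 without both 1A libraries). Cdh2 (N-cadherin) fell by 0.59 ± 0.08 (1.98e-05), from 3.75 to 3.16, the latter below the test minimum. Cdh2 thus passed the minimum only through Trim71-cond, where it was high, so its direction was partly fixed by that filter. Ctnnb1 itself did not move with them, as given above.

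**Figure D5:**
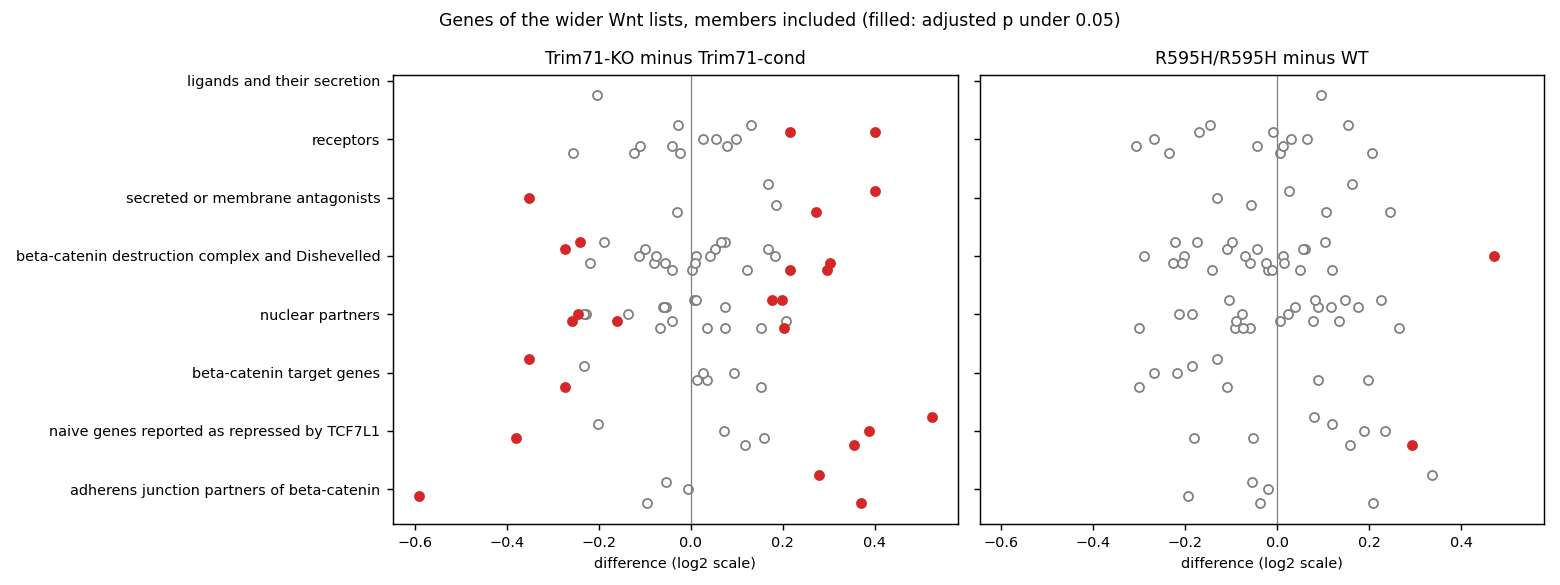
Difference (log2 scale) of every tested gene of the 8 lists, members included, in Trim71-KO against Trim71-cond (left) and R595H/R595H against WT (right). A gene in more than 1 list appears in each, and filled points have an adjusted p under 0.05. Filled points lie on both sides of 0 on the left, and on the right only Csnk1e and Tbx3 are filled.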

How the data were processed

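The values were made by the authors with CASAVA 1.8, STAR and DESeq2, per the submitters' processing notes. Which assembly and gene models were used, and how reads were counted and transformed, is not given in the sources used here. In the deposited table, each gene and library has a score, taken here as a log2 value resembling a regularized log. Base 2 was inferred from the tool the authors named, and every fold rests on it. Such a scale keeps no read counts, so depth and counting error are unknown.

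Each column was assigned to its library by its name. Libraries of a clone were averaged, giving 9 clone values. limma 3.58.1 in R 4.3.3 (lmFit, eBayes with trend and robust) was fitted to the 8 conditional libraries, to the 9 clones and to all 17 units together, over genes with a mean of at least 3.32 in the fit, with Benjamini-Hochberg adjustment over those genes. The fits were tested on simulated data. Positions and exon lengths are from GENCODE vM21 (GRCm38), promoter windows from RefSeq (GRCm38.p6). Alternatives were other scalings, no filter, another variance prior, each library or clone left out, the replicate block, both systems in one fit, 5/2 libraries alone, single libraries with the clone as a random effect, and a Y-linked covariate.

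The labels give both libraries of a code the same day. Codes 3A and 3B share a day, so the day alone does not set those pairs, and the block uses the code. Deviations of same-coded libraries from their group means correlated at -0.89 (1A), -0.09 (2B), -0.12 (3A) and 0.13 (3B). The 1A pair thus deviated in opposite directions, and the other pairs showed little or no shared deviation.

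The members and lists were chosen with earlier results of these data known. Named beside the members were Trim71, cell-state and Y-linked markers, up to 4 called genes a list with the smallest adjusted p, and the 3 genes most like Gsk3b and Lrp6.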

Additional observations from a re-analysis of the deposited data

Results flagged for a closer look

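With 4 libraries a group, chance sets a library apart in about 1 of 20 groups. Sfrp1 was at 8.68 in Trim71-cond 1A, far above the next library at 8.33. Tbc1d32 was at 5.23 in Trim71-cond 3A, below the next at 5.47, and at 5.99 in Trim71-KO 2B, above the next at 5.78. The effect of deletion minus that of R595H/R595H differed from 0 by limma for Trim71 (-2.09) and Nr5a2 (0.45, adjusted p = 0.0162), with the latter passing in 24 of 26 alternatives. The difference was 0.39 for Ap2b1 and 0.38 for Prkdc. These 2 were chosen for following Lrp6 over the same units, so their values are a description, and they passed in 4 and 6 of 26 alternatives.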

How the results depend on the processing

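With the replicate block, 2 members were called after deletion (67 genes for the difference between the effects of deletion and R595H/R595H), and the wider list kept its count within 12 to 19 under all 15 alternatives. Without both libraries of code 1A, an alternative chosen after seeing the data, 3 members were called, and 2 wider genes for the difference of effects. Leaving out a library in turn gave 1 (without Trim71-cond 3A) to 4 members after deletion, with 2 without Trim71-cond 1A and 3 without Trim71-KO 1A, Trim71-KO 3A or Trim71-cond 3B, and 0 to 1 for the difference of effects. No result was reversed. The block ended no call that is not named in the report except those of Ap2b1 (0.087) and Prkdc (0.0694) for the difference of effects, which were also lost in most other alternatives (22 and 20 of 26 in all).

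For R595H/R595H against WT the 328 genes called became 157 with equal library totals, 191 with 5/2 libraries only and 134 with the Y-linked covariate, and with a clone left out from 67, when it was C14 of R595H/R595H, to 541, when it was C21 of R595H/+. The 2 wider genes became 0, 1 and 0 under the same 3 settings, 1 with the other variance prior, and 0 (without R595H/R595H C14, WT C7 or WT C5) to 3 with a clone left out. For R595H/R595H against R595H/+ the 74 genes became 19 with equal totals, 116 with no filter, 213 with the clone as a random effect (where 1 wider gene was called) and 3 with the Y-linked covariate, and 7 (without R595H/R595H C14) to 80 with a clone left out. For the difference of effects the 136 genes became 83 with 5/2 libraries only and 40 (without WT C7) to 225 (without R595H/+ C21) with a unit left out, and the wider list gave 2 with the Y-linked covariate and 0 (without R595H/R595H C14 or WT C7) to 2 with a unit left out. The cause of these changes was not tested. The gene Lars2 alone made up from 0.33% (R595H/R595H C20) to 13.2% (R595H/R595H C24) of the summed linear values of a library. Whether that bears on the counts with equal library totals was not tested. Members were called in none of the 16 alternatives of the 3 clonal comparisons. Scaling moved the median difference of all genes by up to 0.04. Leaving out clones that enter a comparison only through the shared spread was chosen after seeing the data. Depth is unknown, and 3 clones a genotype limit the precision.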

Other observations

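Clones with a library from each title date show how far a member's value moved without a change of genotype. The titles do not say what the dates mark. The largest gaps were 0.20 for Tcf7 in R595H/+ C15 and 0.17 for Lrp6 in WT C16, beside a difference of -0.17 for Lrp6 between R595H/R595H and WT. In R595H/R595H C14 the gap of Tcf7 was 0.01 and that of Lrp6 was 0.01.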
